A study of Homo sapiens with 18 samples.

Results

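The genes described here encode enzymes that make cholesterol and fatty acids, proteins that switch those enzymes on or hold them back, and a sterol carrier. They were taken from a list of 36 genes in 3 branches: 18 sterol genes, 7 genes of SREBP control and 11 fatty acid genes. Each gene is represented by 1 array feature (a transcript cluster), the one with the highest mean over all arrays where it had several. In all, 30 of the 36 had a named feature, out of 14884 gene symbols on the array: 14 sterol genes, 5 SREBP control genes and all 11 fatty acid genes. CYP51A1, FDFT1, LSS, SC5D, MBTPS1 and MBTPS2 were not analysed here.

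The data are 18 Affymetrix Human Gene 2.0 ST arrays of total RNA, 3 in each of 6 groups of cultured breast cancer cells. Treated groups received an antisense oligonucleotide (ASO) against a long non-coding RNA: AL078604.2 in MDA-MB-231 and in MDA-MB-468, and LINC01269 in SKBR3. Each was set against control ASO arrays of its own line, so every culture had received an oligonucleotide. The ASOs were GapmeRs, which direct the cell's own RNase H to cut the RNA they pair with, transfected at 15 nM with TransIT-BrCa for 48 h. SKBR3 is a HER2-positive line, whereas the other two are triple-negative, and each is an established line. The comparisons ask what lowering each RNA does to the transcriptome of its line. Neither target had a named feature, so its knockdown was not analysed here.

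Cholesterol is built from acetyl-CoA through mevalonate, farnesyl diphosphate and squalene, and the same acetyl-CoA is carboxylated and condensed into fatty acids, which are then elongated and desaturated. Both routes are under the sterol regulatory element-binding proteins (SREBPs), membrane-bound transcription factors encoded by SREBF1 and SREBF2. When sterols are scarce, SCAP escorts the SREBPs from the endoplasmic reticulum to the Golgi, where they are cut and released to the nucleus. When sterols are plentiful, INSIG1 and INSIG2 hold SCAP back. Breast cancer lines generally express both routes, since dividing cells need membrane lipid.

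Several markers ran against the line names, which are used below as the labels give them. VIM, high in most descriptions of MDA-MB-231, had a percentile rank of 76.6 among all features of its control arrays, against 98.1 for the epithelial splicing factor ESRP1 and 99.2 for the adhesion molecule EPCAM. Other mesenchymal markers were mixed. AXL stood higher in MDA-MB-231 than in MDA-MB-468 (83.2 against 60.1), as did ZEB1 (45.8 against 33.3). ZEB2 was near equal (39 against 38.6). LOX (70 against 77.4), TWIST1 (15.7 against 22) and VIM (76.6 against 82.1) stood lower. The HER2-amplicon gene GRB7 stood at 79.1 in SKBR3 control arrays, close to 81.3 in MDA-MB-231 and 78.8 in MDA-MB-468, while EGFR stood at 99.0, 98.2 and 98.7. Array medians differed between lines, at 5.41 to 5.43 in MDA-MB-231, 5.21 to 5.24 in MDA-MB-468 and 4.56 to 4.63 in SKBR3. Correlations between replicate arrays ran from 0.985 to 0.992. The labels do not say that replicates came from separate cultures, so p-values may measure technical spread only. Precision is limited by the number of arrays.

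Markers of other cell types gave no call with limma in any comparison, though several were not low on the array. Of 9 adipocyte markers, 6 had a feature and 3 were tested, with medians of -0.02, 0.03 and -0.06 log2 for ASO minus control in MDA-MB-231, in MDA-MB-468 and in SKBR3, an order kept below. The percentiles of these 6 in the control arrays ran from 14.8 (LPL) to 66.1 (PLIN1), from 16.9 to 67.4 and from 18.1 to 64.5, with the same genes at the ends. CIDEA was wholly below control in SKBR3 (-0.33, adjusted p = 0.507). Of 7 leukocyte markers 3 had a feature, and only CD68 was tested, at the 84.1, 68.7 and 78.1 percentiles of the control arrays. It differed by 0.47, 0.38 and 0.19 (unadjusted p = 0.00831, 0.027 and 0.242, limma adjusted p = 0.284, 0.404 and 0.758), wholly above control in MDA-MB-468. LYZ stood at 23.2, 24.6 and 21.5 and CD14 at 43.7, 43.3 and 35.6. Of 9 fibroblast and endothelial markers 4 had a feature, with percentiles from 4.47 (DCN) to 51.9 (VWF), from 6.2 to 46.0 and from 6.72 to 42.9, again with the same genes at the ends. Only VWF was tested, with differences of 0.04, 0.04 and 0.18. VWF and PECAM1 were wholly above control in SKBR3. Of tested features, 7.28% were wholly above and 4.26% wholly below control in SKBR3, and 8.41% wholly above in MDA-MB-468. Line markers did not pass either. Their medians in the same order were -0.08, -0.16 and -0.03 for 8 luminal and HER2 markers, -0.12, -0.10 and 0.03 for 3 basal markers, 0.01, 0.25 and 0.43 for 4 mesenchymal markers, and -0.02, -0.11 and -0.11 for 4 epithelial markers. Their part in the results below was not tested.

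The promoters of 5 members are printed here, as a description on which no result below depends. MVD, THRSP and FADS1 are 3 of the 4 members that lay on the same side of control without overlap in both anti-AL078604.2 comparisons. ACACA, the other one, is not printed. HMGCS1 had the smallest p of the members in MDA-MB-468, and SREBF2 encodes the regulator of the sterol branch. Each printed promoter is 300 bases, 250 before to 50 after the gene start, from RefSeq annotation of GRCh38.p14, read along the gene's own strand. They lie at chr16:88663042-88663341 (MVD, minus strand), chr11:78063611-78063910 (THRSP, plus strand), chr11:61816954-61817253 (FADS1, minus strand), chr5:43313363-43313662 (HMGCS1, minus strand, 1 of 2 annotated starts) and chr22:41832855-41833154 (SREBF2, plus strand). Capitals mark matches to the sterol regulatory element TCACNCCAC and to CCAAT, the box bound by NF-Y, on either strand (ATTGG is CCAAT read from the other strand).
MVD: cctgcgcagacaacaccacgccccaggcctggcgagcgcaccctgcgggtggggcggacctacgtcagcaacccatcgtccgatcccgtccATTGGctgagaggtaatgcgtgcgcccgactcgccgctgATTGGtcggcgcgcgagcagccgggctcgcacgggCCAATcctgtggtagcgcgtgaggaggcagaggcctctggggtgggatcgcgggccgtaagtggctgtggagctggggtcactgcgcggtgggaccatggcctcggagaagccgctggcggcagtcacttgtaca
THRSP: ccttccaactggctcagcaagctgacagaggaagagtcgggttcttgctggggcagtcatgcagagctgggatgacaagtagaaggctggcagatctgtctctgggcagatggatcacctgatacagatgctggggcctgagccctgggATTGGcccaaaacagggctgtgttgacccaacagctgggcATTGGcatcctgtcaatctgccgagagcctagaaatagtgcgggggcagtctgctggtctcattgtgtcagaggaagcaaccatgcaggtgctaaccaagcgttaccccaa
FADS1: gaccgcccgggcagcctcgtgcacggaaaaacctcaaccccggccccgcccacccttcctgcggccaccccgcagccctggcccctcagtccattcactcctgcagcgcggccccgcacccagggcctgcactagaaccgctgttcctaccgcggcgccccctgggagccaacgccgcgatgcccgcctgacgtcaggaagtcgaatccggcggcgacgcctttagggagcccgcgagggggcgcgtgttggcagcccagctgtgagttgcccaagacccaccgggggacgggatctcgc
HMGCS1: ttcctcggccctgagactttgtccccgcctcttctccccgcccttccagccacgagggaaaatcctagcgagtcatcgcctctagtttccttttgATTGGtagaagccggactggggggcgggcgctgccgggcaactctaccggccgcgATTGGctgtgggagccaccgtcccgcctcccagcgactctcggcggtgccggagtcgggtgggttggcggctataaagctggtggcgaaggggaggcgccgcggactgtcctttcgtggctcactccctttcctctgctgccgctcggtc
SREBF2: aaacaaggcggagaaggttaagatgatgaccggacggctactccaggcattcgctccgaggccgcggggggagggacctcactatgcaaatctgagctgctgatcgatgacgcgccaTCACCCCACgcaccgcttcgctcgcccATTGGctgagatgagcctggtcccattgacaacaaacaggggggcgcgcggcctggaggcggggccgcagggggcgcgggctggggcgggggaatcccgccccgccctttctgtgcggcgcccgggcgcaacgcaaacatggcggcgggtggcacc

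RefSeq windows were found for 28 of the 30 members. The sterol element TCACNCCAC occurred in 379 of 27305 genes (1.39%) and in 1 of these 28, SREBF2, where it starts 133 bases before the gene start. These motifs do not overlap in the windows printed. CCAAT was in 39.7% of genes and in 22 of 28 members (78.6%): 12 of 13 sterol genes, 2 of 5 SREBP control genes and 8 of 10 fatty acid genes. GGGCGG, a box bound by Sp1 and not capitalised above, was in 48.3% of genes and in 25 of 28 members. Genes with several annotated starts had several windows. MVD holds 3 CCAAT boxes, THRSP and the printed HMGCS1 window hold 2 each, and the FADS1 window holds none. The window at the other HMGCS1 start, not printed, holds none either. A match describes the letters only and does not show binding. Only the letters TCACNCCAC were searched for the sterol element, so a missing match does not show that a gene lacks one.

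All 30 members were expressed above the filter for testing, and their control arrays stood at the 65.7 to 99.8 percentiles of all features in MDA-MB-231, 55.3 to 99.8 in MDA-MB-468 and 67.9 to 99.9 in SKBR3. The feature for SCD, the stearoyl-CoA desaturase, was at 99.8, 99.8 and 99.9. A feature's brightness also depends on its probes, so genes are not ranked against each other.

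After anti-AL078604.2 ASO in MDA-MB-231, nearly all members lay a little below control, led by the lipogenic factor THRSP, the mevalonate enzyme MVD and the carboxylase ACACA. No member passed the test: with limma, 51 of 29855 features had an adjusted p under 0.05 (0.171%), and 0 of 30 members did. At an unadjusted p under 0.05 there were 7 members lower, against 4.45% of features, and 0 higher, against 4.9% (9.35% of features in all). The log2 difference was below 0 for 27 of 30 members, against 47.0% of all features. Under every alternative and array omission tried, 24 to 27 members were below 0. In each comparison the share is over tested features of every brightness. No share for features as bright as the members was computed. The 3 ASO arrays lay wholly below the 3 control arrays for 9 members, against 7.87% of features, and wholly above for 1 member, against 9.28%. Those below were MVD, SQLE, NSDHL, INSIG1, ACACA, THRSP, ELOVL5, SCD and FADS2, and the one above was FADS1. RNA came from whole cultures, so fewer cells with a transcript and less transcript per cell cannot be told apart.

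Branch by branch, the median difference in MDA-MB-231 was -0.09 for the sterol genes, -0.15 for SREBP control and -0.10 for the fatty acid genes, against 0.01 for all features. The mean of the fatty acid genes, as a deviation from the control mean, was -0.12, -0.16 and -0.20 in the ASO arrays, against 0.02, -0.04 and 0.02 in the control arrays, with no overlap. THRSP, by far the largest difference of the branch at -0.98, weighs on this mean. The per-array medians of the branch were -0.07, -0.12 and -0.08, against -0.01, -0.02 and 0.04, also without overlap. For SREBP control the means were -0.0217, -0.176 and -0.209, against -0.0211, -0.0195 and 0.0407, so ASO replicate 1 was barely below the controls. The per-array medians of SREBP control overlapped, at 0.0047, -0.14 and -0.2043 in the ASO arrays, against -0.0249, -0.0161 and 0.0795. The mean of the sterol genes was -0.09, -0.12 and -0.12 in the ASO arrays, against -0.04, -0.04 and 0.08 in the control arrays, again without overlap. Control replicate 3 stood above the other controls here: 2 of its 14 sterol genes were below the control mean, against 11 in each of the other control arrays. Without it the sterol median was -0.03.

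**Figure D1:**
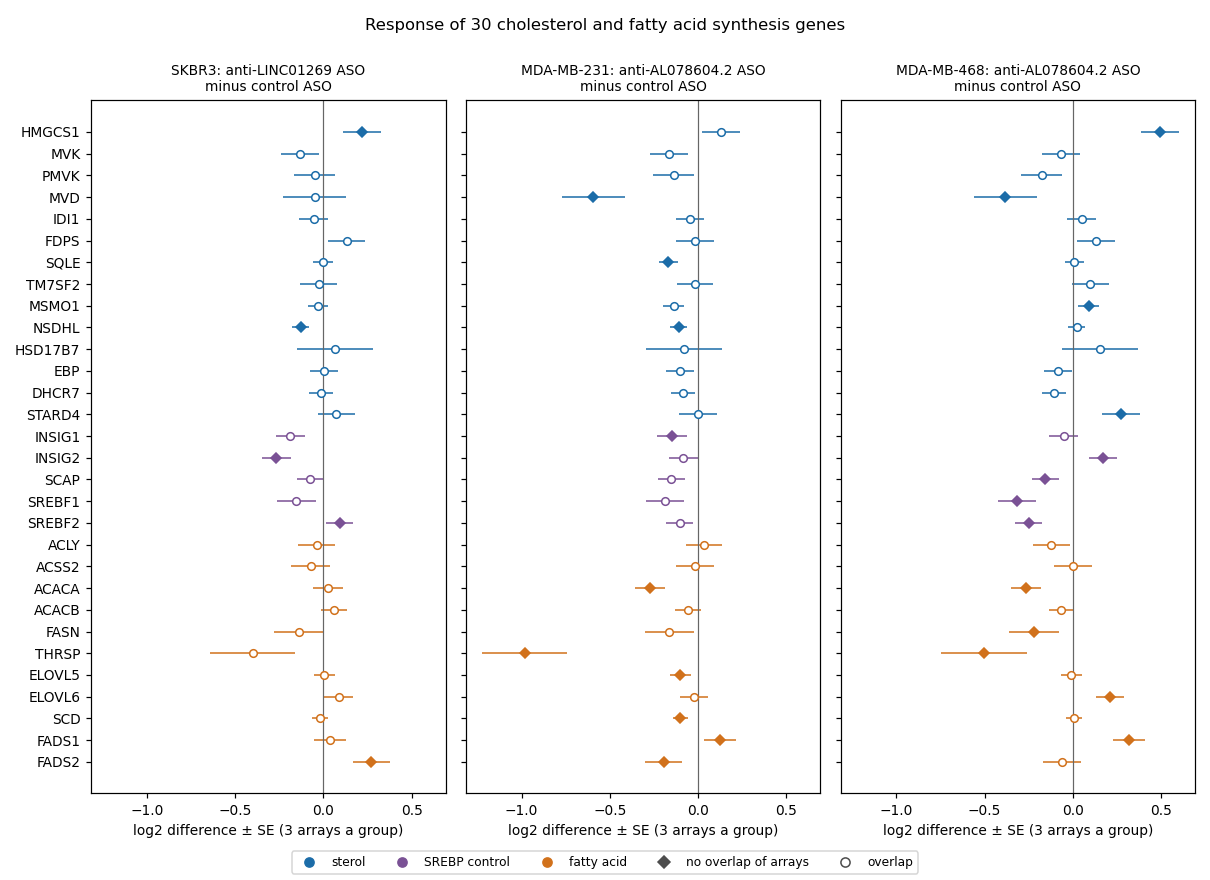
Log2 difference (ASO minus control) ± SE from limma for the 30 members, genes down the page by branch and 1 panel per comparison, 3 arrays a group. Diamonds mark members whose ASO and control arrays did not overlap. In MDA-MB-231, 27 of 30 points lie below 0, in MDA-MB-468 16 and in SKBR3 18, and none passed the adjusted test.

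Among the sterol genes of MDA-MB-231, MVD, which decarboxylates mevalonate diphosphate to isopentenyl diphosphate, read 8.92, 8.54 and 8.06 log2 units in ASO arrays, against 8.97, 8.99 and 9.34 in control arrays. The groups did not overlap, although ASO replicate 1 was close to the lowest control. The difference was -0.59 (0.663-fold, SE 0.18, limma adjusted p = 0.222). Without ASO replicate 1 it was -0.80 with an adjusted p of 0.0278, the only member call made by leaving out an array, and without ASO replicate 3 it was -0.37 (adjusted p = 0.725). SQLE, the squalene epoxidase that makes the first oxygenated sterol precursor, read 10.60, 10.68 and 10.65 in ASO arrays, against 10.80, 10.77 and 10.86 in control arrays. All ASO arrays were the lower ones, by -0.17 (0.89-fold, SE 0.0553, adjusted p = 0.277). MSMO1, a methylsterol oxidase, read 11.65, 11.74 and 11.86 in ASO arrays, against 11.85, 11.89 and 11.93 in control arrays. Its groups overlapped, with a difference of -0.14 (0.908-fold, SE 0.0576, adjusted p = 0.435), or -0.09 without ASO replicate 1.

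SREBP control genes of MDA-MB-231 differed less clearly. SCAP, the escort of the SREBPs, read 7.87, 7.60 and 7.66 in ASO arrays, against 7.75, 7.88 and 7.94 in control arrays, and ASO replicate 1 lay among the controls (-0.15, 0.899-fold, SE 0.077, adjusted p = 0.578). INSIG1, the retention factor that SREBPs themselves induce, read 10.12, 10.15 and 10.08 in ASO arrays, against 10.27, 10.30 and 10.22 in control arrays. It was the 1 gene of this branch without overlap (-0.15, 0.902-fold, SE 0.0837, adjusted p = 0.648). SREBF1 read 8.05, 7.69 and 7.55 in ASO arrays, against 7.87, 7.94 and 8.06 in control arrays, with overlap (-0.19, 0.878-fold, SE 0.109, adjusted p = 0.661). Single arrays weighed on both: SREBF1 was at -0.33 without ASO replicate 1 and at -0.08 without replicate 3, and SCAP at -0.23 without replicate 1 and at -0.10 without replicate 2.

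The largest member difference in MDA-MB-231 was in the fatty acid branch. THRSP, a nuclear protein that promotes lipogenic gene expression, read 6.20, 6.01 and 5.77 in ASO arrays, against 7.31, 6.80 and 6.82 in control arrays. No arrays overlapped, and the difference was -0.98 (0.506-fold, SE 0.241, limma adjusted p = 0.119). ACACA, the cytosolic acetyl-CoA carboxylase that commits acetyl-CoA to fatty acids, read 8.89, 8.71 and 8.70 in ASO arrays, against 8.96, 9.02 and 9.12 in control arrays. Again all ASO arrays were lower (-0.27, 0.829-fold, SE 0.0852, adjusted p = 0.243). SCD, which makes monounsaturated fatty acids, read 13.03, 13.02 and 13.01 in ASO arrays, against 13.15, 13.14 and 13.08 in control arrays, without overlap (-0.10, 0.932-fold, SE 0.0436, adjusted p = 0.464). FADS1, a front-end desaturase of polyunsaturated fatty acids, went the other way. It read 7.51, 7.64 and 7.62 in ASO arrays, against 7.47, 7.45 and 7.47 in control arrays, the only member with all ASO arrays higher (0.12, 1.09-fold, SE 0.0907, adjusted p = 0.76).

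**Figure D2:**
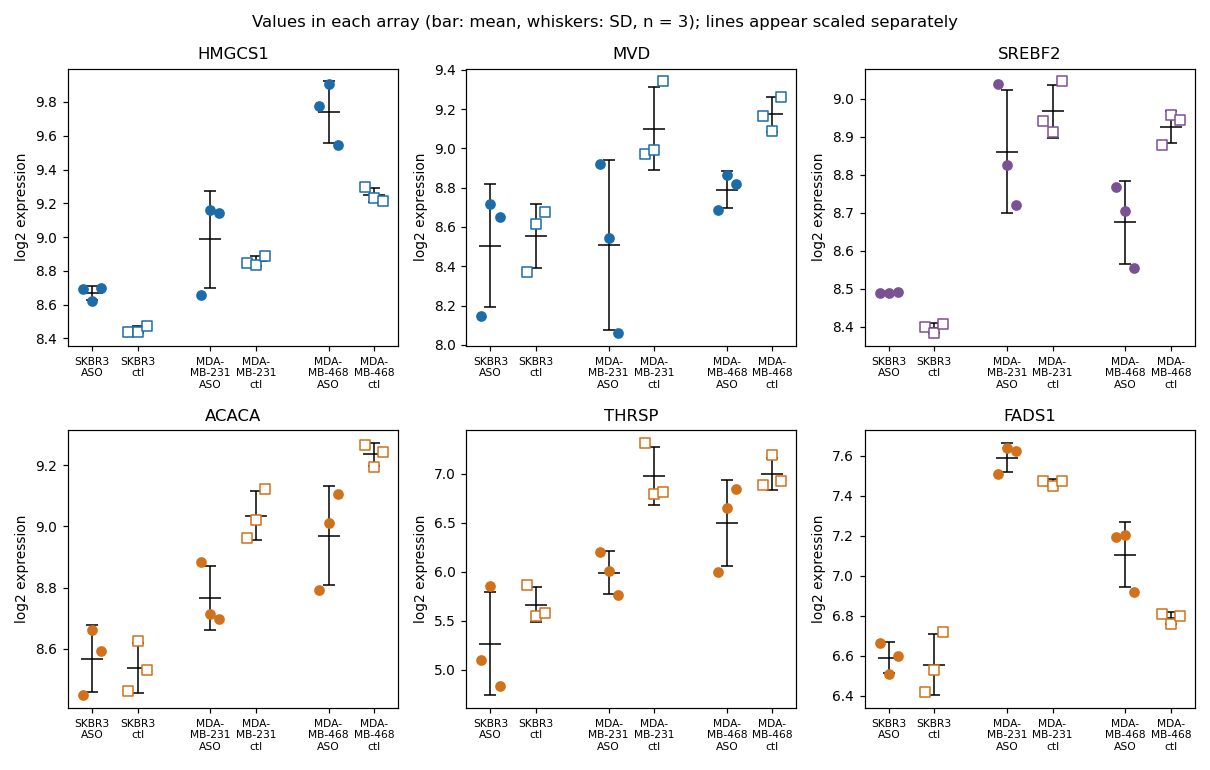
Log2 expression (y axis) in each array of HMGCS1, MVD, SREBF2, ACACA, THRSP and FADS1, with filled circles for ASO and open squares for control arrays, a bar for the mean and whiskers for the SD (n = 3). MVD, ACACA and THRSP lie lower and FADS1 higher in the ASO arrays of both MDA-MB-231 and MDA-MB-468, while heights are not comparable between lines.

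After the same ASO in MDA-MB-468, members went both ways: HMGCS1, FADS1, STARD4 and ELOVL6 lay above control, while SREBF1, SREBF2, ACACA, MVD and THRSP lay below. None passed: with limma, 2 of 29855 features did (0.0067%) and 0 of 30 members. At an unadjusted p under 0.05 there were 4 members higher, against 5.25% of features, and 4 lower, against 5.24% (10.5% of features in all). The log2 difference was below 0 for 16 of 30 members, against 50.9% of all features. The groups did not overlap for 6 members that were higher, against 8.41% of features, and for 7 that were lower, against 8.5%. The higher ones were HMGCS1, MSMO1, STARD4, INSIG2, ELOVL6 and FADS1, and the lower ones MVD, SCAP, SREBF1, SREBF2, ACACA, FASN and THRSP.

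Median differences in MDA-MB-468 were 0.04 for the sterol genes, -0.16 for SREBP control and -0.06 for the fatty acid genes, against -0.0035 for all features. The mean of the SREBP control genes was -0.15, -0.10 and -0.11 in the ASO arrays, against 0.02, -0.01 and -0.01 in the control arrays, without overlap. For the sterol genes it was 0.04, 0.11 and -0.04 in the ASO arrays, and the control arrays all lay within 0.0008 of their own mean, inside that range. The fatty acid means also overlapped, and that branch's median was 0.0008 without control replicate 2, -0.11 without control replicate 3 and -0.02 without ASO replicate 3. The sterol median was 0.0013 without ASO replicate 2 and 0.0038 without control replicate 3.

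HMGCS1, which makes the HMG-CoA from which mevalonate is formed, read 9.77, 9.90 and 9.55 in MDA-MB-468 ASO arrays, against 9.30, 9.23 and 9.21 in control arrays. Every ASO array was higher, by 0.49 on average (1.41-fold, SE 0.109, limma adjusted p = 0.163). STARD4, a cytosolic sterol carrier, read 9.65, 9.64 and 9.54 in ASO arrays, against 9.36, 9.35 and 9.31 in control arrays, also without overlap (0.27, 1.21-fold, SE 0.107, adjusted p = 0.384). MVD read 8.69, 8.87 and 8.82 in ASO arrays, against 9.17, 9.09 and 9.26 in control arrays. It was the 1 sterol gene wholly below control (-0.38, 0.767-fold, SE 0.18, adjusted p = 0.475).

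Both SREBP genes lay below control in MDA-MB-468. SREBF2 read 8.77, 8.70 and 8.55 in ASO arrays, against 8.88, 8.96 and 8.94 in control arrays (-0.25, 0.84-fold, SE 0.0763, limma adjusted p = 0.285). SREBF1, whose products act mainly on fatty acid genes, read 7.24, 7.27 and 7.29 in ASO arrays, against 7.66, 7.51 and 7.58 in control arrays (-0.32, 0.803-fold, SE 0.109, adjusted p = 0.327). The groups overlapped for neither. INSIG2 was higher: 10.09, 10.18 and 10.30 in ASO arrays, against 10.00, 9.99 and 10.07 in control arrays (0.17, 1.13-fold, SE 0.0812, adjusted p = 0.482). SCAP was the third gene of this branch that lay wholly below control, by -0.16 (adjusted p = 0.498).

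In the fatty acid branch of MDA-MB-468, FADS1 read 7.20, 7.20 and 6.92 in ASO arrays, against 6.81, 6.76 and 6.80 in control arrays. All ASO arrays were higher (0.32, 1.25-fold, SE 0.0907, limma adjusted p = 0.258). ACACA read 8.79, 9.01 and 9.11 in ASO arrays, against 9.27, 9.20 and 9.24 in control arrays, all lower (-0.27, 0.831-fold, SE 0.0852, adjusted p = 0.3). ELOVL6, an elongase of saturated and monounsaturated chains, read 9.22, 9.36 and 9.23 in ASO arrays, against 9.10, 9.09 and 8.98 in control arrays, all higher (0.21, 1.16-fold, SE 0.081, adjusted p = 0.367). THRSP read 6.0, 6.65 and 6.84 in ASO arrays, against 6.89, 7.19 and 6.92 in control arrays. Its ASO arrays were the lower ones but replicate 3 came close to the controls (-0.50, 0.706-fold, SE 0.241, adjusted p = 0.482). Without ASO replicate 1, THRSP was at -0.25 and ACACA at -0.18. FASN, the fatty acid synthase itself, was also wholly below control, by -0.22 (adjusted p = 0.624).

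**Figure D3:**
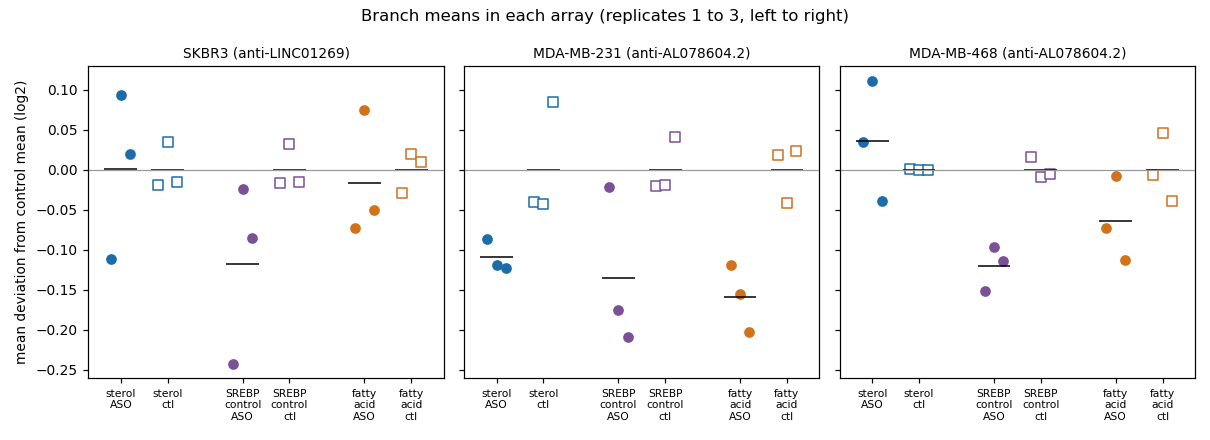
Mean over the members of a branch, as log2 deviation from the control mean of its line, in each array; filled circles are ASO and open squares control arrays, left to right by replicate, and bars are group means. In MDA-MB-231 the means of the ASO arrays lie below those of all controls in each branch, barely so for SREBP control, whose per-array medians overlap. The fatty acid ASO arrays there lie at -0.12, -0.16 and -0.20, a mean on which THRSP weighs. In MDA-MB-468 the SREBP control ASO arrays lie at -0.15, -0.10 and -0.11.

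The anti-AL078604.2 comparisons have separate controls and can be set side by side. MVD, ACACA and THRSP were lower without overlap in both, which 1.35% of features were, and FADS1 was higher in both, which 1.43% were. The count was the same under each of 3 other normalizations or feature choices. HMGCS1, without overlap in MDA-MB-468, read 8.66, 9.16 and 9.14 in MDA-MB-231 ASO arrays, against 8.85, 8.84 and 8.89 in control arrays, where ASO replicate 1 was the lowest of all.

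Whether the response differed between these lines was tested as MDA-MB-231 minus MDA-MB-468. No feature passed with limma (0%), while 1243 had an unadjusted p under 0.05 (4.16%), and 0 members passed. Smallest p-values were those of MSMO1 (-0.23, SE 0.0815), HMGCS1 (-0.36, SE 0.153), SQLE (-0.18, SE 0.0782) and INSIG2 (-0.25, SE 0.115), each with an adjusted p of 0.998. HMGCS1 was at -0.20 without MDA-MB-231 ASO replicate 1. In each the response was lower in MDA-MB-231: -0.14 against 0.09 for MSMO1, 0.13 against 0.49 for HMGCS1, -0.17 against 0.01 for SQLE and -0.08 against 0.17 for INSIG2.

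Calls in both lines depended on how arrays were weighted. With limma's array weights, an alternative that counts arrays of low residual spread for more, 7 members passed in MDA-MB-231, where 8.08% of features did, all lower: THRSP, ACACA, MVD, SCAP, MSMO1, SCD and NSDHL. In MDA-MB-468 11 members passed, where 17.4% of features did. HMGCS1, FADS1, ELOVL6, STARD4, MSMO1, TM7SF2 and INSIG2 were higher and SREBF2, SREBF1, ACACA and PMVK lower. MSMO1 alone passed for the difference between lines (-0.28, adjusted p = 0.0296, 1.04% of features). The weights were uneven: ASO replicate 2 had a weight of 9.62 in MDA-MB-468 and 3.43 in MDA-MB-231, against 0.377 to 1.97 for all other arrays.

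In SKBR3 cells given the anti-LINC01269 ASO, differences were small and mixed, with INSIG2 and NSDHL below control and FADS2 and HMGCS1 above. With limma 0 of 29855 features passed (0%) and 0 of 30 members, while 2736 features (9.16%) had an unadjusted p under 0.05. Of the members, 1 was higher at that threshold, against 5.37% of features, and 3 were lower, against 3.79%. The groups did not overlap for 3 members that were higher, against 7.28% of features, and for 2 that were lower, against 4.26%. The higher ones were HMGCS1, SREBF2 and FADS2, and the lower ones NSDHL and INSIG2. The log2 difference was below 0 for 18 of 30 members, against 46.0% of features, and for 10 without ASO replicate 1. Median differences were -0.02 for the sterol genes, -0.15 for SREBP control and 0.01 for the fatty acid genes, against 0.01 for all features. With an array left out, the SREBP control median ran from -0.22 (without ASO replicate 2) to -0.06 (without ASO replicate 1). The sterol median ran from -0.07 to 0.03 under the same omissions, and the fatty acid median from -0.02 (without ASO replicate 2) to 0.02 (without control replicate 2), so neither kept a sign. ASO replicate 1 had the lowest mean of the ASO arrays in each branch.

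NSDHL, a dehydrogenase that helps remove sterol methyl groups, read 9.13, 9.21 and 9.14 in SKBR3 ASO arrays, against 9.30, 9.28 and 9.29 in control arrays. All ASO arrays were lower (-0.13, 0.915-fold, SE 0.0473, limma adjusted p = 0.45). HMGCS1 read 8.69, 8.62 and 8.70 in ASO arrays, against 8.44, 8.44 and 8.48 in control arrays, all higher (0.22, 1.16-fold, SE 0.109, adjusted p = 0.57). FDPS, the farnesyl diphosphate synthase, read 8.51, 8.66 and 8.48 in ASO arrays, against 8.60, 8.40 and 8.26 in control arrays. Its groups overlapped (0.13, 1.1-fold, SE 0.107, adjusted p = 0.754), and its second feature gave -0.04. It was at 0.22 without control replicate 1, 0.05 without control replicate 3 and 0.08 without ASO replicate 2.

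INSIG2 read 8.58, 8.90 and 8.79 in SKBR3 ASO arrays, against 9.02, 9.11 and 8.95 in control arrays, the largest difference of its branch and without overlap (-0.27, 0.831-fold, SE 0.0812, limma adjusted p = 0.39). INSIG1 read 9.07, 9.51 and 9.37 in ASO arrays, against 9.56, 9.53 and 9.43 in control arrays. ASO replicate 1 was far below the rest while replicate 2 lay among the controls (-0.19, 0.879-fold, SE 0.0837, adjusted p = 0.527). SREBF1 read 6.77, 7.07 and 6.97 in ASO arrays, against 7.01, 7.14 and 7.12 in control arrays, with overlap (-0.15, 0.899-fold, SE 0.109, adjusted p = 0.71). Without ASO replicate 1 these 3 genes were at -0.18 (INSIG2), -0.06 (INSIG1) and -0.07 (SREBF1), and without replicate 2 INSIG1 was at -0.28.

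FADS2, the front-end desaturase that acts ahead of FADS1, read 6.13, 5.92 and 5.98 in SKBR3 ASO arrays, against 5.79, 5.76 and 5.66 in control arrays, all higher (0.27, 1.21-fold, SE 0.105, limma adjusted p = 0.472). THRSP read 5.10, 5.85 and 4.84 in ASO arrays, against 5.87, 5.55 and 5.58 in control arrays. The ASO arrays were more scattered than the controls and overlapped them (-0.40, 0.758-fold, SE 0.241, adjusted p = 0.649). ELOVL6 read 8.25, 8.03 and 8.25 in ASO arrays, against 8.10, 8.07 and 8.10 in control arrays, with overlap (0.09, 1.06-fold, SE 0.081, adjusted p = 0.789). THRSP was at -0.69 without ASO replicate 2 and at -0.19 without replicate 3, and ELOVL6 ran from 0.05 (without ASO replicate 1 or 3) to 0.16 (without replicate 2).

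The remaining 12 members are given by their ranges. The other sterol genes were the kinases MVK and PMVK, the isomerase IDI1 and the late-step enzymes TM7SF2, HSD17B7, EBP and DHCR7. Their differences ran from -0.16 (MVK) to -0.02 (TM7SF2) in MDA-MB-231, all 7 below 0. In MDA-MB-468 they ran from -0.18 (PMVK) to 0.15 (HSD17B7), and in SKBR3 from -0.13 (MVK) to 0.07 (HSD17B7). The other fatty acid genes were ACLY and ACSS2, which supply acetyl-CoA, the mitochondrial carboxylase ACACB, the synthase FASN and the elongase ELOVL5. These ran from -0.16 (FASN) to 0.03 (ACLY) in MDA-MB-231, from -0.22 (FASN) to 0.0007 (ACSS2) in MDA-MB-468 and from -0.14 (FASN) to 0.06 (ACACB) in SKBR3. FASN was thus the lowest of these 5 in each comparison. The smallest limma adjusted p among these 12 genes was 0.624.

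Control arrays were also compared between lines, after quantile normalization of all arrays because array medians differ between lines. Line cannot be told apart from array run or scaling here. In SKBR3 minus the mean of MDA-MB-231 and MDA-MB-468, 10 of 30 members passed with limma, 5 higher and 5 lower, where 35.1% of features passed. MVK, the mevalonate kinase, was higher in SKBR3: 8.18, 8.25 and 8.26, against 7.37, 7.51 and 7.53 in MDA-MB-231 and 7.50, 7.48 and 7.41 in MDA-MB-468 (0.76, 1.7-fold, SE 0.0923, limma adjusted p = 1.18e-05). SCD was also higher, at 13.02, 12.99 and 13.02 in SKBR3, against 12.84, 12.85 and 12.76 in MDA-MB-231 and 12.75, 12.72 and 12.76 in MDA-MB-468 (0.23, SE 0.0374, adjusted p = 0.000215). SQLE was lower, at 10.41, 10.44 and 10.44 in SKBR3, against 10.46, 10.41 and 10.50 in MDA-MB-231 and 11.05, 10.99 and 10.95 in MDA-MB-468. The difference was -0.30 (SE 0.0508, adjusted p = 0.0003), and SKBR3 overlapped MDA-MB-231 but not MDA-MB-468. FADS2 was higher, at 6.24, 6.20 and 6.09 in SKBR3, against 5.91, 5.95 and 6.01 in MDA-MB-231 and 5.24, 5.58 and 5.24 in MDA-MB-468 (0.52, SE 0.0916, adjusted p = 0.000396). On the deposited scale, where SKBR3 arrays sit lower throughout, 0 members were higher and 28 lower, MVK did not pass (0.08, adjusted p = 0.441), and SCD (-0.38) and FADS2 (-0.14) took the opposite sign.

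Between the triple-negative lines, MDA-MB-231 minus MDA-MB-468, 14 of 30 members passed with limma, 6 higher and 8 lower, where 26.1% of features passed. By branch these were 3 higher and 5 lower sterol genes, 1 higher and 2 lower SREBP control genes, and 2 higher and 1 lower fatty acid genes. SQLE was lower in MDA-MB-231, as its values above show (-0.54, 0.687-fold, SE 0.0586, adjusted p = 9.16e-06). INSIG1 was lower too, at 9.93, 9.94 and 9.87 in MDA-MB-231, against 10.53, 10.43 and 10.42 in MDA-MB-468 (-0.55, 0.685-fold, SE 0.0855, adjusted p = 0.000243). STARD4 read 8.67, 8.57 and 8.52 in MDA-MB-231, against 9.18, 9.20 and 9.15 in MDA-MB-468 (-0.59, 0.666-fold, SE 0.107, adjusted p = 0.000843). FADS2 was higher in MDA-MB-231, with 1.52-fold (0.60, SE 0.106, adjusted p = 0.000597). These 4 kept direction and call under each of 5 other settings. On the deposited scale the split was 12 higher and 4 lower.

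**Figure D4:**
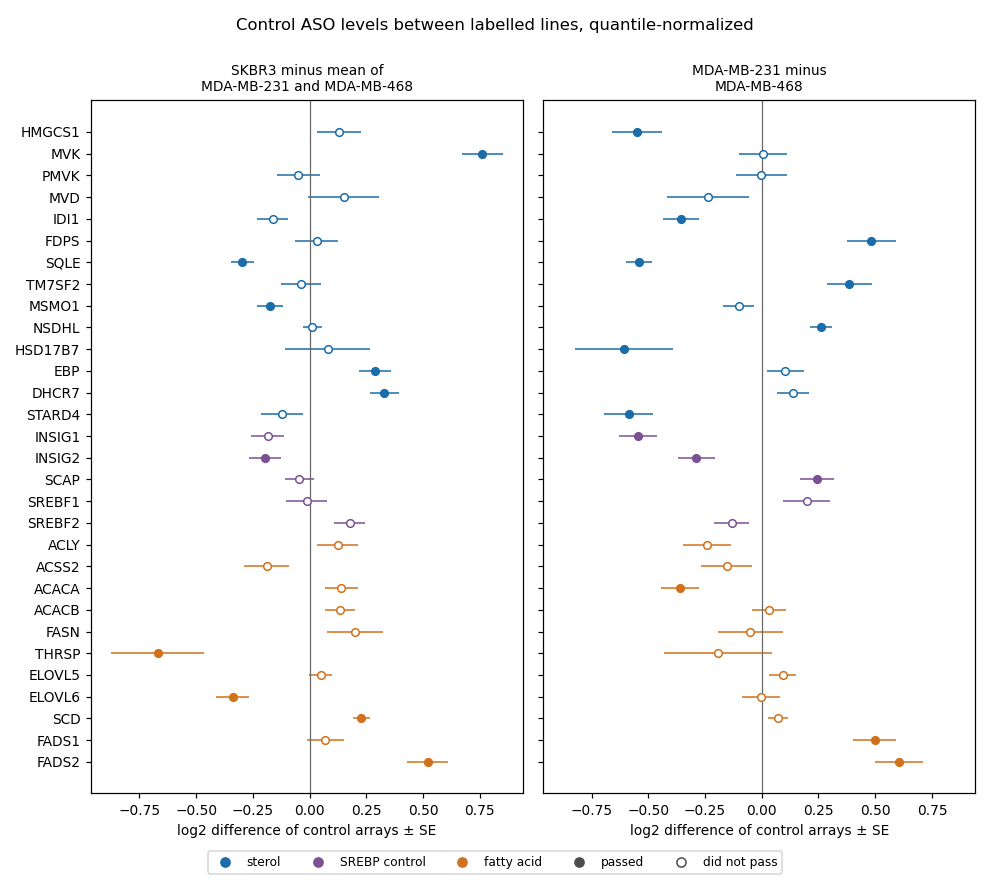
Log2 difference ± SE between control arrays (3 a line, quantile-normalized) for the 30 members, with SKBR3 minus the mean of the others on the left and MDA-MB-231 minus MDA-MB-468 on the right. Filled points passed the adjusted threshold: 10 on the left, 5 on either side of 0, and 14 on the right, 6 above and 8 below.

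Genes around these routes gave 0 calls with limma in any of the 3 comparisons. The lists, medians and counts below run in the same order of lines, with SKBR3 last. They cover only the tested genes of each list, so parts of each route are missing. Tested were 5 of 18 listed genes of oxidation, 10 of 17 of glycerolipid synthesis and 7 of 12 of other elongation and desaturation. For uptake and storage it was 11 of 16, for efflux and LXR 2 of 10 and for isoprenoid branches 5 of 15. For activation and uptake it was 5 of 13, and for NADPH and citrate 4 of 9. Among 5 tested genes of fatty acid oxidation, the reverse of synthesis, 5, 4 and 4 were below 0, with medians of -0.14, -0.07 and -0.06. CPT2, of the mitochondrial import of fatty acids, had the smallest p in MDA-MB-231 (-0.19, adjusted p = 0.487) and CPT1A, which starts that import, in MDA-MB-468 (-0.33, adjusted p = 0.388). Among 10 genes of glycerolipid synthesis 5, 7 and 4 were below 0, with medians of 0.01, -0.08 and 0.07. LPIN1, a phosphatidate phosphatase, was wholly below control in MDA-MB-231 (-0.28, adjusted p = 0.11) and in MDA-MB-468 (-0.17, adjusted p = 0.382). Of all features, 1.35% were wholly below in both. LPIN2, of the same list, was wholly above control in MDA-MB-468 (0.19, adjusted p = 0.348). Of 7 other elongation and desaturation genes 4, 3 and 3 were below 0, with medians of -0.06, 0.10 and 0.05. ELOVL4, an elongase of very long chains, was wholly above control in all 3 comparisons (0.41, 0.37 and 0.13, adjusted p = 0.119, 0.248 and 0.747). Of all features, 9.28%, 8.41% and 7.28% were wholly above control, and 7.87%, 8.5% and 4.26% wholly below. The share wholly above in all 3 comparisons was not computed.

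On the sterol side, 7, 4 and 4 of 11 uptake and storage genes were below 0, with medians of -0.02, 0.02 and 0.03. VLDLR, a lipoprotein receptor, had the smallest p in MDA-MB-231 (-0.22, adjusted p = 0.304). In that line 2 genes of the list were wholly below control, VLDLR and GRAMD1B (-0.23, adjusted p = 0.392). Another 2 were wholly above, OSBPL2 (0.17, adjusted p = 0.466) and GRAMD1A (0.15, adjusted p = 0.701). Only 2 of the 10 genes of the efflux and LXR list were tested, both LXR targets. LPCAT3, a phospholipid remodelling enzyme, differed by -0.23, -0.21 and -0.26 (adjusted p = 0.529, 0.504 and 0.489), and MYLIP, which marks lipoprotein receptors for degradation, by 0.16, -0.02 and -0.04. The list medians were -0.03, -0.12 and -0.15. Of 5 isoprenoid branch genes 1, 3 and 1 were below 0, with medians of 0.04, -0.08 and 0.06, and NUS1, a subunit of the dolichol-forming transferase, was wholly above control in SKBR3 (0.18, adjusted p = 0.382). Of 5 fatty acid activation and uptake genes 3, 4 and 3 were below 0, with medians of -0.05, -0.22 and -0.04. ACSL4, which activates polyunsaturated fatty acids, was wholly above control in MDA-MB-468 (0.39, adjusted p = 0.248). ACSL1, of the same list, was wholly below control in MDA-MB-231 (-0.33, adjusted p = 0.398) and in MDA-MB-468 (-0.23, adjusted p = 0.582). In SKBR3 its groups overlapped (-0.29, adjusted p = 0.534). Of all features, 1.35% were wholly below control in both anti-AL078604.2 comparisons. FABP5 went the other way in MDA-MB-231, wholly above control (0.40, adjusted p = 0.493). Its groups overlapped in MDA-MB-468 (-0.27, adjusted p = 0.642) and in SKBR3 (0.17, adjusted p = 0.828). The NADPH and citrate list had 4 tested genes, of which 2, 3 and 2 were below 0, with medians of 0.01, -0.22 and 0.05. It also holds MLXIPL and MID1IP1, which do not themselves supply NADPH or citrate. They differed by 0.04, -0.21 and -0.0036 (MLXIPL) and by 0.09, 0.08 and -0.0045 (MID1IP1). CS, the citrate synthase, differed by -0.18, -0.35 and 0.13, and was wholly below control in MDA-MB-468 (adjusted p = 0.183). PGD, of NADPH supply, differed by -0.03, -0.23 and 0.10. It was wholly below control in MDA-MB-468 (adjusted p = 0.279) and wholly above in SKBR3 (adjusted p = 0.695).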

How the data were processed

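Per the submitters' processing notes, the authors used Transcriptome Analysis Console on the Affymetrix Human Gene 2.0 ST scans. Build, program version and summarization method are not given in the sources used here. Deposited values (0.41 to 13.84) were read as log2 expression per feature from their range, since no label or header names the scale. The table held 53617 features, 16098 of them with 1 symbol in the platform annotation. Control probes are not marked and were not removed.

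Groups came from the sample labels. In R 4.3.3, limma 3.58.1 fitted a group-means model with an intensity trend to all 18 arrays (12 residual and 4.33 prior degrees of freedom). Features whose mean passed the 50th percentile in 1 or more groups were tested (29855). P-values were two-sided and Benjamini-Hochberg adjusted over these, with a threshold of 0.05. Members, gene lists and tests were chosen with earlier results of these data known. The 3 members per branch with the smallest p in each comparison are given in full, with those that do not overlap in both anti-AL078604.2 comparisons. Up to 4 members are given for the difference between lines and each control comparison. The plan was to name up to 2 genes per further list in a comparison. FASN, SCAP in MDA-MB-468, HMGCS1 in MDA-MB-231 and more genes of the further lists were added after their values were seen. Control levels were compared after quantile normalization. Alternatives changed the normalization, filter, trend, weights, feature choice and arrays. Promoter windows were searched on both strands. Replicates with the same number did not deviate together in every pair (correlations of -0.124 to 0.101), so numbers were not used as pairs. Such correlations, within groups of 3 arrays, cannot exclude pairing. The procedure was run on simulated data with independent noise and set changes larger than most member differences. That run therefore does not show whether differences as small as those of most members would be found.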

Additional observations from a re-analysis of the deposited data

How the results depend on the processing

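No member passed in an ASO comparison under any alternative except array weights and, for MVD in MDA-MB-231, the omission of ASO replicate 1. With 3 arrays a group, a missed threshold does not show that a gene did not differ. Calls over all features in MDA-MB-231 were 28 with no filter, 88 with a filter at the 70th percentile, 26 with no intensity trend, 2413 with array weights and 3 with only the arrays of the line, and 0 to 535 when each array was left out (535 without ASO replicate 1). In MDA-MB-468 they were 5199 with array weights, 0 with only the arrays of the line and 0 to 12 with an array left out. In SKBR3 there was 1 with no filter, and 0 to 232 with an array left out (232 without ASO replicate 2). With the replicate block, calls were 0 in MDA-MB-231 and 0 in MDA-MB-468. The labels do not say whether arrays with the same number were paired.

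With array weights 7 members passed in MDA-MB-231, 11 in MDA-MB-468 and 1 for the difference between lines, and the MDA-MB-468 medians were 0.11 (sterol) and -0.11 (SREBP control). With an array left out, members called in MDA-MB-231 were 0 to 1, the fatty acid median ran from -0.1059 to -0.0692 and the sterol median from -0.1222 to -0.0319. The fatty acid median in MDA-MB-468 ran from -0.11 to 0.0008, and SKBR3 members below 0 from 10 to 22. For SKBR3 control levels, values as deposited gave 28 calls, with SCD at -0.38 and FADS2 at -0.14 reversed, since those arrays lie lower throughout. The other causes were not tested.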
